A study of Mus musculus with 12 samples.

Results

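The genes described here encode the receptors for the transmitters glutamate, GABA and glycine. They were chosen by symbol among the protein-coding genes of the deposited table, and 52 of 38887 genes matched. The set held 4 AMPA, 5 kainate, 7 NMDA and 2 delta receptor genes, 8 metabotropic glutamate receptor genes, 2 GABA-B and 19 GABA-A receptor genes (including the rho subunits), and 5 glycine receptor genes. Of these, 45 passed the filter on low values and were tested. The 7 that did not pass, among them Gabra6, Gabrd, Gabre, Gabrp, Gabrr3 and Grin3b, each reached 1 RPKM (reads divided by the length of the gene and by library size) in at most 2 of the 12 libraries.

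RNA was measured in mouse retinal ganglion cells picked singly by hand after papain digestion of the retina, in a study of nerve injury in 2 ganglion cell classes. Opn4 cells were the tdTomato-positive cells of Opn4CreERT/+;R26-tdTomato f/f mice, in which Cre is driven by the gene of melanopsin, the photopigment of intrinsically photosensitive ganglion cells. HB9 cells were the GFP-positive cells of HB9:GFP mice, a line that labels ON-OFF direction-selective ganglion cells. Mice of both lines received tamoxifen at 0.124 mg per g of body weight for 5 days from postnatal day 21, and had an optic nerve crush or a sham operation at postnatal day 42, with retinas collected 3 days afterwards. The 4 groups were thus Opn4 sham, Opn4 crush, HB9 sham and HB9 crush, with 3 libraries each. A library held 30 cells combined from 3 pools, and each animal gave 10 cells, so animals are averaged within a library. Cell class cannot be told apart from mouse line, Cre and reporter.

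After sham, class markers followed the labels: Opn4, Eomes, Tbx20, Adcyap1 and Trpc7 were each higher in Opn4 cells (5 of 5 past the threshold), and 5 of 6 markers of the HB9 class passed as lower there. After crush these counts were 5 of 5 and 3 of 6. In HB9 cells Eomes and Adcyap1 rose after crush (log2 differences 2.32 and 2.77, limma adjusted p = 0.000837 and 2.07e-05). In Opn4 cells Trpc7 fell (log2 difference -2.08, limma adjusted p = 0.0209). Mnx1, the gene whose product is HB9, lay between 20.9 and 41.7 RPKM in HB9 sham and between 1.13 and 3.06 RPKM in HB9 crush, a fall of its own (log2 difference -3.30, limma adjusted p = 0.000471). The libraries had been scaled to between 15104446 and 28195798 reads. The libraries Opn4 sham 1 and Opn4 crush 1 stood apart from the rest on the third principal component, and the median within-group standard deviation on the log2 scale was 0.47 and 0.51 in the Opn4 groups against 0.33 and 0.34 in the HB9 groups. The summed rod markers ranged over 874 to 2249 RPKM in Opn4 sham, 1213 to 3480 in Opn4 crush, 332 to 1119 in HB9 sham and 650 to 1073 in HB9 crush. All 15 rod markers had positive log2 differences (Opn4 minus HB9) in sham and in crush libraries alike, with medians of 1.34 and 1.22 on the log2 scale, and 1 of 15 passed the threshold each time (Cnga1 after sham, Nr2e3 after crush). The summed amacrine markers (8 genes) ranged over 161 to 280 RPKM in Opn4 sham and 13.4 to 92.2 in HB9 sham, and over 289 to 380 and 60.1 to 261 after crush. Of these 8, 2 passed as higher in Opn4 cells after sham and 2 after crush, with Gad2 among them both times. The 8 microglial markers summed to between 0.614 and 14.6 RPKM over the 12 libraries. Csf1r was present in every library (0.614 to 5.59 RPKM) and Aif1 reached 9.65 in Opn4 crush 2, while C1qb and C1qc were at 0 throughout and Cx3cr1 did not exceed 0.159. The part of other cell types in the class differences below was not tested.

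As background, AMPA, kainate and NMDA receptors are ion channels built of several subunits and opened by glutamate, the transmitter that bipolar cells release onto ganglion cells. GABA-A and glycine receptors are chloride channels opened by the transmitters of amacrine cells, while metabotropic glutamate receptors and GABA-B receptors act through G proteins. Which subunits a neuron makes sets the kinetics, ion permeability and drug sensitivity of its channels. The levels below are those of messenger RNA and not of receptors at the membrane. In pooled cells, fewer cells carrying a transcript and less transcript per cell cannot be told apart.

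Regulatory sequence upstream of the start was read from the RefSeq promoter table (GRCm38.p6, the build named mm10 in the submitters' notes), which had 43 entries for 36 of the 52 genes. The 6 sequences below belong to genes that recur in the results: Gabra2, Gabra4 and Gabra5 (lower in Opn4 cells), Gria2 and Gabbr1 (higher in Opn4 cells) and Grin1 (lower in HB9 cells after crush). Each ends at the base before the RefSeq start, or earlier where an annotated exon of any gene begins. For Gria2 and Gabra5 the RefSeq start lies upstream of the gene start in the deposited coordinates. Each runs 5′ to 3′ on the gene's strand, and matches to the motifs listed after the sequences are in capitals.

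Gabra2, chr5:71095850-71096099, minus strand: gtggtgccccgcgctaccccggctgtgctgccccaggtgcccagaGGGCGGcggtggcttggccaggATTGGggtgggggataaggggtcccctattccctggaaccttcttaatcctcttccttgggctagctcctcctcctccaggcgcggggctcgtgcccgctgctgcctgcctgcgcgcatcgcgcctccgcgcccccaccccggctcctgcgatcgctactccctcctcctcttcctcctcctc
Gabra4, chr5:71658364-71658558, minus strand: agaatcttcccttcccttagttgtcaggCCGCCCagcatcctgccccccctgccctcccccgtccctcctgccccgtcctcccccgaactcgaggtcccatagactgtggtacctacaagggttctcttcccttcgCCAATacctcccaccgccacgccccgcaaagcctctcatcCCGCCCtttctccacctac
Gabra5, chr7:57510060-57510309, minus strand: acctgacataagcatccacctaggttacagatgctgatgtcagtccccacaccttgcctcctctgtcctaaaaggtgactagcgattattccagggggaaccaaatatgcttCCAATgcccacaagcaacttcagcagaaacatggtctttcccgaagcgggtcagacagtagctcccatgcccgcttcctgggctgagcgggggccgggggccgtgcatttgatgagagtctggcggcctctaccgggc
Gria2, chr3:80802836-80803085, minus strand: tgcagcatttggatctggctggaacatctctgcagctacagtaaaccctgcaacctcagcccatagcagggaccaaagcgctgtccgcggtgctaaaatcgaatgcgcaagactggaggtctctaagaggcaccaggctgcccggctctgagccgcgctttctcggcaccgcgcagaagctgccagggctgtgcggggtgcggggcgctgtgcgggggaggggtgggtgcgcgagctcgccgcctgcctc
Gabbr1, chr17:37045716-37045965, plus strand: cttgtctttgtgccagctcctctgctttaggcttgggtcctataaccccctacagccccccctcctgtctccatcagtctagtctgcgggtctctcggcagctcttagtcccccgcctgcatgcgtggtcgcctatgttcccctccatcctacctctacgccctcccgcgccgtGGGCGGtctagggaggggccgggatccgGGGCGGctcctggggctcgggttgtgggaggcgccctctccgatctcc
Grin1, chr2:25319188-25319437, minus strand: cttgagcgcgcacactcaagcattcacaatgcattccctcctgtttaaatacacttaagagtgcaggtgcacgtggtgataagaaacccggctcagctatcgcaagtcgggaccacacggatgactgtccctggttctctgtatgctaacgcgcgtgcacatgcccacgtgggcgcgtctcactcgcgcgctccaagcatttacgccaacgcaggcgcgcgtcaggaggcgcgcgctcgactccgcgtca

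Motifs were searched on both strands in the 250 bases before the start, and matches to different motifs were allowed to overlap. The GC box (GGGCGG) was present in 21 of the 43 entries and in 32.7% of all 32851 promoters of the table. The CCAAT box (CCAAT) was present in 18 of 43 and in 33.8% of all promoters, and the TATA box (TATAAA) in 5 of 43 and in 12.4%. Among letters tied to injury and ganglion cell factors, the AP-1 motif (TGANTCA) was present in 2 of 43 entries (Grin3b and Grm8) and in 6.75% of all promoters. The POU4F motif (ATAATTAAT) was present in 1 entry, that of Gabrg1, and in 0.259% of all promoters. The cyclic AMP response element (TGACGTCA) and the T-box motif (AGGTGTGA) had no match in the 43 entries and were present in 1.55% and 1.12% of all promoters. Of the printed sequences, those of Gria2 and Grin1 held none of these letters, whereas those of Gabra2 and Gabra4 held a GC box and a CCAAT box, and that of Gabra5 a CCAAT box. Those of Gabra4 and Gabbr1, genes that differed between classes in opposite directions, held 2 GC boxes each.

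Summed over the 52 genes, receptor transcripts came to between 936 and 1183 RPKM in Opn4 sham, 1034 and 1070 in Opn4 crush, 1199 and 1425 in HB9 sham and 928 and 1001 in HB9 crush. Glrb, the beta subunit through which glycine receptors are anchored at synapses, and Gabbr2, the G-protein coupling subunit of the GABA-B receptor, held the first and second place, in either order, by mean RPKM in Opn4 sham, Opn4 crush and HB9 sham. In HB9 crush, Glrb was still first at 275 ± 26.3 RPKM (SD, n = 3), but Gabbr2 was sixth at 50.3 ± 18.8. Gabbr2 and Grin1 there, at 50.3 and 51.5 RPKM, differed by less than their spread.

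**Figure D1:**
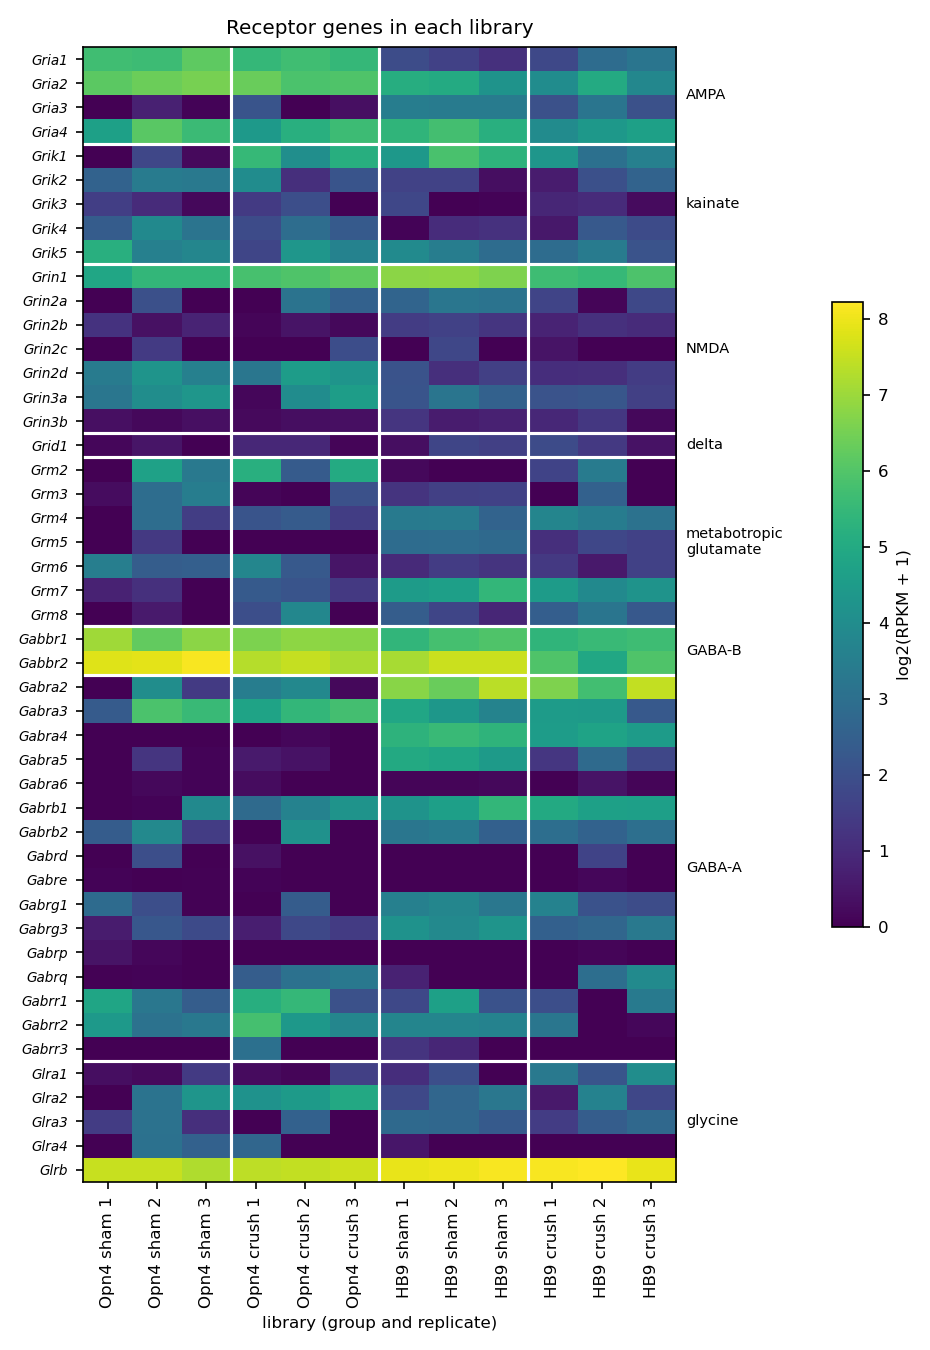
Level of 47 of the 52 receptor genes (rows, by family) in each of the 12 libraries (columns), as log2(RPKM + 1) on the colour scale. Gria1 is bright in the 6 Opn4 columns, Gabra2 and Gabra4 in the 6 HB9 columns, and Grik1 is low in the 3 Opn4 sham columns.

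The class comparison asks how the 2 ganglion cell classes differ, first without and then with nerve injury. After sham, 17 of the 45 tested receptor genes passed the threshold (limma on log2(RPKM + 1), Benjamini-Hochberg adjusted p under 0.05 over all genes), 5 of them higher in Opn4 cells and 12 lower. At an unadjusted p under 0.05 there were 8 higher and 16 lower, and the share of all genes at that cut is not given here. Of all 18269 genes tested, 11.8% passed, 5.82% higher and 5.93% lower. The median log2 difference, Opn4 minus HB9, was -0.38 over the receptor genes and 0.01 over all genes. After crush, 13 passed, 6 higher and 7 lower, where 12.7% of all genes passed, 5.12% higher and 7.60% lower. The receptor median was then 0.29 against -0.12 over all genes, and it was -0.24 when the library HB9 crush 1 was left out. Receptor genes past the threshold in both comparisons numbered 10, and each kept its direction. Gria1, Gria2, Grin2d and Gabbr1 were higher in Opn4 cells, and Gabra2, Gabra4, Glrb, Grm5 and Grm7 were among those that were lower. The share of all genes that passed in both and kept direction is not given here, so this count is not set against a background.

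With the rod marker level as a covariate, 11 receptor genes passed after sham and 7 after crush. Those after crush include Glra2, which did not pass in the main fit (log2 difference 4.47, limma adjusted p = 0.0179). All 15 rod markers had positive class differences, so this covariate overlaps with class. Calls kept or lost under it therefore cannot separate class from rod transcripts. Gria2, Grin2d, Gabra2, Gabrb1, Gabrg3 and Glrb were no longer past the threshold after sham, and after crush Gria2, Gabra2, Gabrr2, Glra1, Glrb and Grm5 were among those no longer past it. The 11 genes that still passed after sham included Gria1, Gria3, Grik1, Grik4, Grin1, Grm5, Grm7, Gabbr1, Gabra4 and Gabra5. Without the 2 libraries that stood apart, 18 passed after sham and 15 after crush. Shares over all genes are not given for this fit or for the rod covariate fit, so these counts lack a background of their own.

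**Figure D2:**
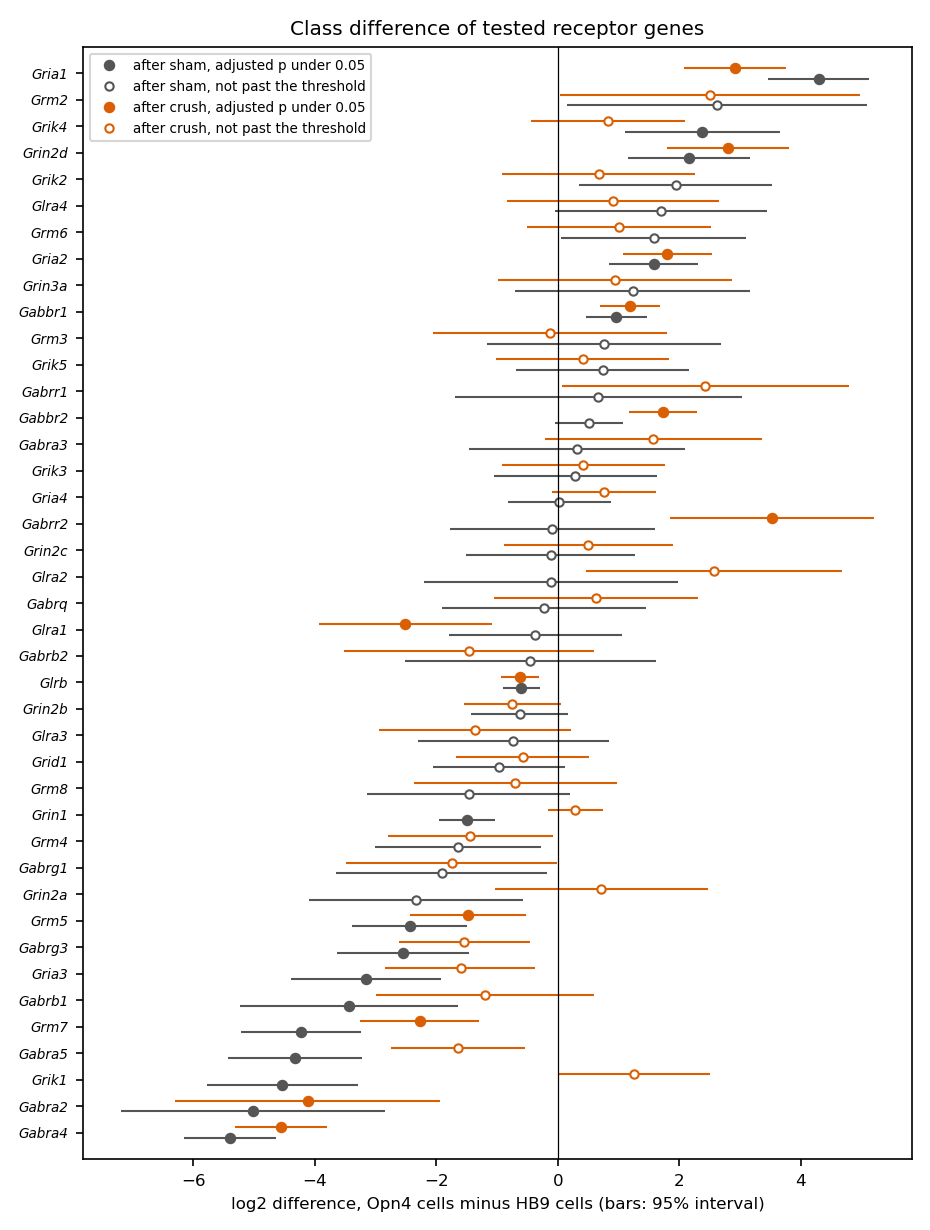
Difference between classes for 41 of the 45 tested receptor genes (Opn4 minus HB9, log2 scale of RPKM + 1), after sham in grey and after crush in orange, with 95% intervals; filled points passed the threshold. Gria1 is at the top after sham (4.30) and Gabra4 at the bottom (-5.40), and Grik1 and Grin1 move from left of 0 after sham to right of it after crush.

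Among the AMPA receptor subunits, which carry fast excitation, Gria1 (GluA1) set the classes apart most. Gria1 measured 50.9, 49.3 and 71.5 RPKM in the 3 Opn4 sham libraries and 43.4, 50.8 and 43.4 in Opn4 crush. It measured 2.75, 2.04 and 1.20 RPKM in HB9 sham and 2.45, 6.54 and 8.08 in HB9 crush. Every Opn4 library was above every HB9 library. The log2 difference between classes was 4.30 ± 0.39 (limma SE, n = 3 per group, adjusted p = 1.58e-05) after sham and 2.92 ± 0.39 (adjusted p = 0.000386) after crush, and both calls held under every alternative.

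Gria2 (GluA2), whose edited form makes AMPA receptors impermeable to calcium, measured 70.5, 82.3 and 92.6 RPKM in Opn4 sham and 81.1, 59.1 and 61.0 in Opn4 crush. In HB9 sham it measured 33.6, 31.7 and 17.5 RPKM, and in HB9 crush 15.1, 31.3 and 12.9. The groups of the 2 classes did not overlap. Its log2 difference was 1.58 ± 0.33 after sham (adjusted p = 0.00800) and 1.80 ± 0.33 after crush (adjusted p = 0.00388).

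Gria3 (GluA3) went the other way. It was 0.00886, 0.692 and 0.0613 RPKM in Opn4 sham and 10.1, 9.74 and 9.74 in HB9 sham, a log2 difference of -3.16 ± 0.57 (limma adjusted p = 0.00289). After crush it was 3.36, 0.0112 and 0.254 RPKM in Opn4 cells and 3.12, 8.14 and 3.12 in HB9 cells, so the groups overlapped and the difference did not pass. Without Opn4 crush 1, the library at 3.36 RPKM, it passed (log2 difference -2.26, adjusted p = 0.0139). Gria4 (GluA4), the remaining subunit, lay between 14.6 and 68.9 RPKM over the 12 libraries and passed in no comparison.

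As shares of the summed AMPA RPKM, Gria1 made up 31.0% ± 5.68 in Opn4 sham and 30.8% ± 3.63 in Opn4 crush (SD, n = 3), against 2.37% ± 0.688 in HB9 sham and 11.2% ± 5.00 in HB9 crush. Gria4 was the leading subunit of HB9 sham at 52.5% ± 5.11, where it was 24.6% ± 8.87 in Opn4 sham. The AMPA sum itself was 187 ± 35.6 RPKM in Opn4 sham and 82.8 ± 16.9 in HB9 sham, and 149 ± 4.29 and 49.9 ± 15.3 after crush.

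**Figure D3:**
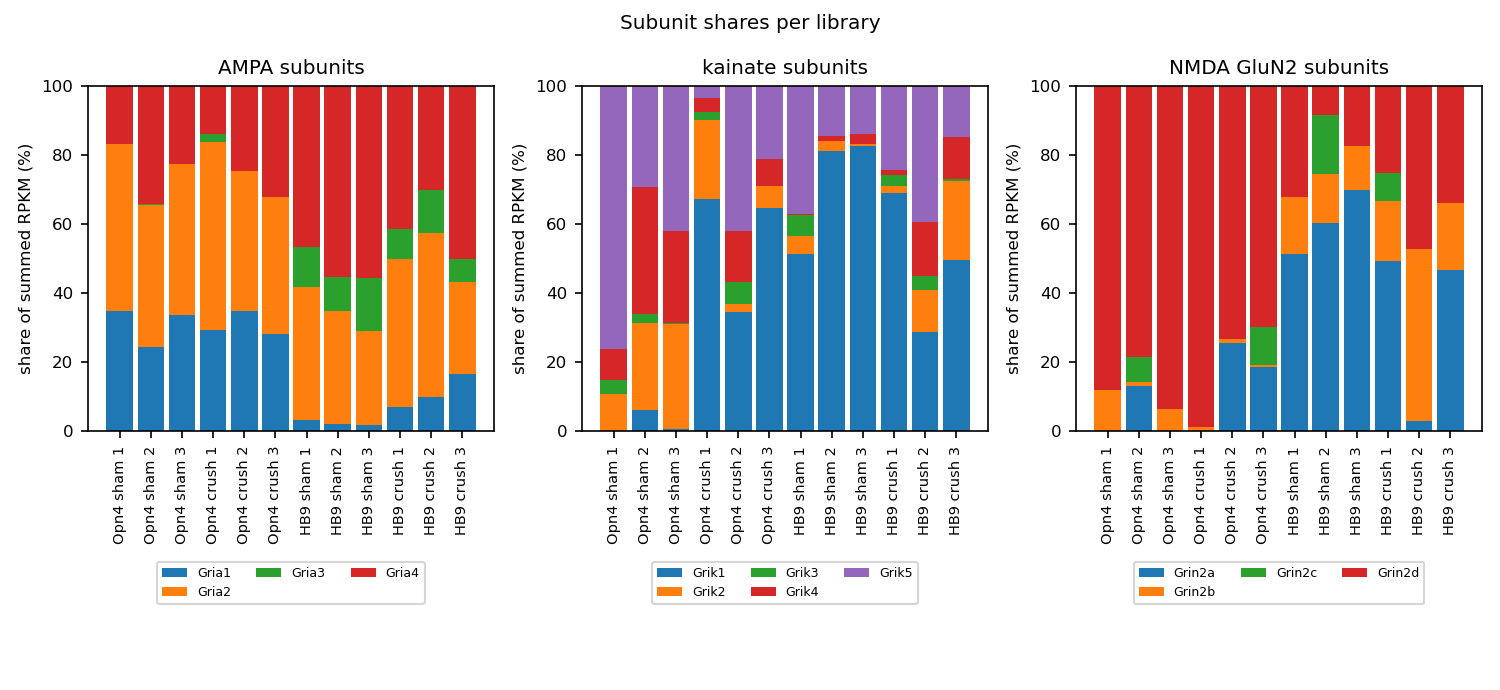
Share of each subunit in the summed RPKM of its group, for AMPA (left), kainate (middle) and NMDA GluN2 subunits (right), 1 bar per library adding to 100%. Gria1 takes 24.5% to 34.9% of the AMPA bars in Opn4 sham and 1.87% to 3.16% in HB9 sham, Grik1 takes 0 to 6.12% of the kainate bars in Opn4 sham, and Grin2d leads the GluN2 bars in all 6 Opn4 libraries.

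The kainate receptor gene Grik1 (GluK1, ENSMUSG00000022935, chromosome 16, 87896196 to 88056176 on the minus strand) had the largest crush effect among the receptor genes in Opn4 cells. It measured 0, 2.34 and 0.163 RPKM in Opn4 sham and 44.6, 15.7 and 34.5 in Opn4 crush. In HB9 cells it measured 20.0, 57.8 and 38.5 RPKM after sham and 18.8, 7.18 and 11.1 after crush. Opn4 sham thus stood below the other 3 groups in every library, and within HB9 cells the crush libraries were below the sham libraries. The rise in Opn4 cells was 4.26 ± 0.58 on the log2 scale (limma SE, adjusted p = 0.00343). The value in HB9 cells was -1.54 ± 0.58 (adjusted p = 0.150), which did not pass.

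The difference between these crush effects was tested directly and was 5.80 ± 0.81 (limma, adjusted p = 0.00742). Between classes, Grik1 was lower in Opn4 cells after sham (log2 difference -4.54 ± 0.58, adjusted p = 0.000242), and the groups overlapped after crush (1.26 ± 0.58, adjusted p = 0.183). Its share of kainate RPKM was 2.22% ± 3.39 in Opn4 sham and 55.5% ± 18.3 in Opn4 crush, against 71.8% ± 17.7 and 49.2% ± 20.2 in HB9 cells. With voom on recovered reads, neither the rise in Opn4 cells nor the difference of the effects passed, and the rise also did not pass in a fit of the 6 Opn4 libraries alone (adjusted p up to 0.139 for the rise and 0.0643 for the difference).

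Because Grik1 is also transcribed in OFF bipolar cells, the 15 bipolar markers were read beside it. Their sum ranged over 161 to 256 RPKM in Opn4 sham, 101 to 441 in Opn4 crush, 87.6 to 162 in HB9 sham and 28.2 to 101 in HB9 crush. Of the 13 that were tested, 8 had positive crush effects in Opn4 cells, with a median log2 difference of 0.12, and none passed the threshold. In HB9 cells 10 of 13 had negative crush effects, with a median of -0.48, and Scgn passed as lower. For the difference of the crush effects, 10 of 13 were positive with a median of 0.68, and Scgn passed. The library Opn4 crush 1 had the highest bipolar sum and the highest Grik1 of its group, and Opn4 crush 3 the lowest sum with Grik1 at 34.5 RPKM. Vsx1, an OFF bipolar marker, measured 0, 0 and 0.196 RPKM in Opn4 sham and 1.81, 0 and 0.311 in Opn4 crush. The part of bipolar transcripts in the Grik1 values was not tested.

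Grik4 (GluK4), a kainate subunit that needs a partner of the GluK1 to GluK3 kind, measured 4.21, 14.1 and 7.90 RPKM in Opn4 sham and 0.0672, 1.05 and 1.27 in HB9 sham. The groups did not overlap, and the log2 difference was 2.38 ± 0.59 (limma adjusted p = 0.0188). The call was lost with voom and without Opn4 sham 2, Opn4 sham 3 or HB9 sham 1 (adjusted p up to 0.0831). After crush the values were 2.66, 6.74 and 4.06 RPKM against 0.433, 3.92 and 2.71, and the groups overlapped. Grik2, Grik3 and Grik5 passed in no comparison, with Grik5 between 2.27 and 35.4 RPKM.

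Grin1 (ENSMUSG00000026959, chromosome 2, 25291181 to 25319187 on the minus strand) encodes GluN1, the subunit that every NMDA receptor contains. Grin1 measured 28.3, 42.2 and 43.0 RPKM in Opn4 sham and 56.0, 61.3 and 71.8 in Opn4 crush. HB9 cells gave 110, 112 and 98.5 RPKM after sham and 49.9, 45.0 and 59.7 after crush. HB9 sham was above all other libraries, and in Opn4 cells the crush libraries were above the sham libraries. In HB9 cells the fall was 1.04 on the log2 scale (log2 difference -1.04 ± 0.21, limma adjusted p = 0.0101).

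The value of Grin1 in Opn4 cells was 0.74 ± 0.21 (adjusted p = 0.123), which did not pass, while the difference of the crush effects did (1.78 ± 0.30, limma adjusted p = 0.0166). Both calls were lost without the library HB9 sham 2, at adjusted p = 0.0506 and 0.0625. After sham Grin1 was lower in Opn4 cells (log2 difference -1.49 ± 0.21, adjusted p = 0.000556), and after crush the difference was 0.29 ± 0.21 (adjusted p = 0.422). Of its exon bases, 13.5% are shared with Grin1os on the opposite strand in the GENCODE annotation of the build, and whether the counting used strand is not given in the sources used here.

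The GluN2 subunits, which set the kinetics and magnesium block of NMDA receptors, differed by class. Grin2d (GluN2D) measured 9.63, 18.0 and 11.1 RPKM in Opn4 sham and 8.46, 22.4 and 18.2 in Opn4 crush. The values in HB9 cells were 3.31, 1.18 and 1.92 RPKM after sham and 1.12, 1.16 and 1.77 after crush. The classes did not overlap. The log2 difference was 2.16 ± 0.46 after sham (limma adjusted p = 0.00857) and 2.80 ± 0.46 after crush (adjusted p = 0.00178).

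Grin2d made up 86.7% ± 7.67 of GluN2 RPKM in Opn4 sham and 80.6% ± 15.8 in Opn4 crush. In HB9 sham it made up 19.3% ± 11.9, and Grin2a (GluN2A) led with 60.4% ± 9.36. The level of Grin2a was 5.29 to 8.45 RPKM in HB9 sham and 0 to 3.01 in Opn4 sham, with no overlap, and missed the threshold (log2 difference -2.34 ± 0.81, adjusted p = 0.0859). It passed without Opn4 sham 2, at an adjusted p of 0.0405. Grin2b stayed at or under 2.03 RPKM and Grin2c at or under 2.87 in every library. Grin3a (GluN3A), whose receptors respond little to glutamate, lay between 8.43 and 19.2 RPKM in Opn4 sham and between 3.44 and 8.22 in HB9 sham. In Opn4 crush it was 0.0987, 15.0 and 22.9 RPKM, and without that low library, Opn4 crush 1, its class difference after crush passed (2.33, adjusted p = 0.0105).

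Of the delta receptor genes, Grid1 measured 0.115, 0.391 and 0.0153 RPKM in Opn4 sham and 0.871, 0.869 and 0.0931 in Opn4 crush. Its level in HB9 cells was 0.241, 2.26 and 1.93 RPKM after sham and 2.70, 1.59 and 0.322 after crush. The groups overlapped and no comparison passed.

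In the metabotropic glutamate family, 3 of 8 tested genes were lower in Opn4 cells after sham and after crush, and none passed as higher. Of all genes, 5.93% passed as lower after sham and 7.60% after crush. Of those lower, Grm5 (mGlu5) belongs to group I, which couples to phospholipase C, and Grm7 (mGlu7) to group III, which inhibits adenylyl cyclase.

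Grm7 measured 0.727, 1.20 and 0.00790 RPKM in Opn4 sham and 4.01, 3.43 and 1.55 in Opn4 crush. It measured 21.8, 23.9 and 43.0 RPKM in HB9 sham and 22.0, 13.8 and 17.7 in HB9 crush. Every HB9 library was above every Opn4 library. The log2 difference was -4.23 ± 0.45 after sham (limma adjusted p = 6.17e-05) and -2.27 ± 0.45 after crush (adjusted p = 0.00605).

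Grm5 was 0, 1.56 and 0 RPKM in Opn4 sham and 6.58, 6.61 and 6.09 in HB9 sham, a log2 difference of -2.44 ± 0.44 (limma adjusted p = 0.00282). After crush it was listed at 0 in all 3 Opn4 libraries and at 1.17, 2.33 and 2.02 RPKM in HB9 cells. Against a floor of 3 reads over the Opn4 crush group, the 1166 recovered reads of HB9 crush made Grm5 at least 282-fold higher there, counting error alone. That call (adjusted p = 0.0427) was lost under 15 of 22 alternatives, including leaving out any single library of Opn4 crush, HB9 sham or HB9 crush (adjusted p up to 0.187).

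The other 5 metabotropic genes passed in no comparison. Grm2 (mGlu2) varied widely within Opn4 groups, from 0 to 25.1 RPKM after sham and from 4.17 to 35.8 after crush, and did not exceed 0.121 RPKM in HB9 sham. It passed after sham without Opn4 sham 1, the library at 0 (log2 difference 3.96, adjusted p = 0.0257). Grm6, the receptor of ON bipolar cell dendrites, was 0.384 to 12.7 RPKM in Opn4 libraries and 0.465 to 2.04 in HB9 libraries, beside the bipolar sums given above. Grm4 lay between 5.20 and 12.5 RPKM in HB9 libraries and between 0.00821 and 6.74 in Opn4 libraries.

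The GABA-B receptor is an obligate pair of the proteins of Gabbr1, which binds GABA, and Gabbr2, which couples to G proteins. Gabbr1 measured 131, 74.2 and 109 RPKM in Opn4 sham and 95.4, 112 and 108 in Opn4 crush. HB9 cells gave 42, 54.1 and 61.3 RPKM after sham and 40.8, 46.1 and 49.9 after crush. The classes did not overlap, and the log2 difference was 0.96 ± 0.23 after sham (limma adjusted p = 0.0150) and 1.19 ± 0.23 after crush (adjusted p = 0.00465). The call after sham was lost under 5 of 23 alternatives, among them leaving out Opn4 sham 1, Opn4 sham 3 or HB9 sham 1 (adjusted p up to 0.0678), and that after crush under none of them.

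Gabbr2 (ENSMUSG00000039809, chromosome 4, 46662318 to 46991873 on the minus strand) measured 223, 235 and 283 RPKM in Opn4 sham and 158, 180 and 145 in Opn4 crush. The values in HB9 cells were 142, 189 and 187 RPKM after sham and 60.8, 28.6 and 61.6 after crush. HB9 crush was below every other library. The log2 difference of crush against sham in HB9 cells was -1.83 ± 0.26 (limma adjusted p = 0.000963), and it passed under all 23 alternatives. In Opn4 cells the crush libraries were also below the sham libraries, at -0.61 ± 0.26, which did not pass (adjusted p = 0.306), and the difference of the effects did not pass either (1.21 ± 0.37, adjusted p = 0.177).

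With Gabbr1 nearly level between HB9 groups, the Gabbr2 share of GABA-B RPKM was 76.7% ± 1.32 in HB9 sham and 51.1% ± 11.3 in HB9 crush, and 70.4% ± 6.67 and 60.4% ± 2.74 in Opn4 cells. Between classes after crush, Gabbr2 was higher in Opn4 cells by 1.73 ± 0.26 (limma adjusted p = 0.000920), while after sham the difference of 0.52 ± 0.26 did not pass (adjusted p = 0.244).

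Among the 19 GABA-A genes, 14 were tested, and after sham 5 were lower in Opn4 cells and none higher, with 12 of 14 negative and a median log2 difference of -0.99. Of all 18269 genes tested, 5.93% passed as lower and 8975 were negative. The alpha subunits, which with a beta subunit form the GABA site and with gamma the benzodiazepine site, gave the largest values. Gabra4 (alpha4) measured 0.0106, 0 and 0.0113 RPKM in Opn4 sham and 0, 0.107 and 0.0115 in Opn4 crush. Its level in HB9 cells was 38.9, 46.2 and 39.8 RPKM after sham and 22.6, 26.0 and 21.9 after crush. The Opn4 values rest on 2 recovered reads after sham and 9 after crush, and the HB9 values on 11557 and 7573.

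The ratio of Gabra4 reads, HB9 over Opn4, was 5136 after sham with an exact 95% interval of 1421 to 42412, and 611 after crush with an interval of 322 to 1337, for counting error only. On the log2(RPKM + 1) scale, which shrinks such values, the difference was -5.40 ± 0.35 after sham (limma adjusted p = 1.91e-06) and -4.56 ± 0.35 after crush (adjusted p = 7.44e-06), and both calls held under every alternative.

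Gabra2 (alpha2) measured 0, 15.5 and 1.61 RPKM in Opn4 sham and 10.1, 13.3 and 0.138 in Opn4 crush. In HB9 cells it measured 107, 81.0 and 165 RPKM after sham and 99.1, 52.4 and 175 after crush. The classes did not overlap, though the Opn4 libraries spread widely. The log2 difference was -5.02 ± 1.01 after sham (limma adjusted p = 0.00584) and -4.12 ± 1.01 after crush (adjusted p = 0.0180). The call after crush was lost under 7 of 23 alternatives, including leaving out Opn4 crush 3, HB9 crush 1 or HB9 crush 3 (adjusted p up to 0.0924).

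Gabra5 (alpha5, ENSMUSG00000055078), a subunit known for extrasynaptic receptors, measured 0, 1.42 and 0.0526 RPKM in Opn4 sham and 0.500, 0.312 and 0 in Opn4 crush. HB9 cells gave 31.1, 27.4 and 21.5 RPKM after sham and 1.49, 6.23 and 2.34 after crush. HB9 sham stood far above all other libraries. The class difference after sham was -4.33 ± 0.51 on the log2 scale (limma adjusted p = 0.000140). The fall after crush in HB9 cells was -2.81 ± 0.51 (adjusted p = 0.00514), lost with a pseudocount of 0.1 (adjusted p = 0.127). The difference of the crush effects, 2.68 ± 0.72, did not pass (adjusted p = 0.123).

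Gabra3 (alpha3) led the alpha subunits of Opn4 cells in every library other than Opn4 crush 1, with 71.6% ± 8.46 of their summed RPKM in Opn4 sham and 66.5% ± 25.7 in Opn4 crush, whereas Gabra2 led in HB9 cells with 52.6% ± 12.4 and 59.3% ± 20.7. The level of Gabra3 itself did not differ past the threshold, at 36.4 ± 28.6 RPKM in Opn4 sham and 19.7 ± 8.11 in HB9 sham. The alpha sum was 49.7 ± 40.1 and 62.7 ± 4.29 RPKM in Opn4 sham and crush, and 219 ± 30.6 and 174 ± 42.6 in HB9 sham and crush. In the library Opn4 sham 1 this sum was 6.36 RPKM, against 85.4 and 57.4 in the other libraries of its group.

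Of the beta and gamma subunits, Gabrb1 (beta1) measured 0, 0.0643 and 13.9 RPKM in Opn4 sham and 17.5, 24.2 and 42.8 in HB9 sham. Its log2 difference of -3.44 ± 0.83 (limma adjusted p = 0.0166) was lost under 8 of 23 alternatives, including leaving out Opn4 sham 1, Opn4 sham 2, HB9 sham 2 or HB9 sham 3 (adjusted p up to 0.345). After crush it measured 6.18, 11.6 and 17.9 RPKM in Opn4 cells and 31.2, 24.8 and 23.7 in HB9 cells, without passing. Gabrg3 (gamma3) measured 0.527, 3.67 and 2.56 RPKM in Opn4 sham and 17.2, 13.7 and 18.0 in HB9 sham, a log2 difference of -2.55 ± 0.50 (adjusted p = 0.00488). After crush it measured 0.629, 2.47 and 1.67 RPKM in Opn4 cells and 4.70, 5.55 and 8.97 in HB9 cells, with no overlap and an adjusted p of 0.0619.

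The GABA-A genes lie in groups on the chromosomes, and the class difference was read by group (mm10, genes within 1000000 bases of a neighbour). In the group on chromosome 5 from 70751047 to 72138389, Gabrg1, Gabra2, Gabra4 and Gabrb1 had log2 differences after sham of -1.91, -5.02, -5.40 and -3.44, the last 3 past the threshold. Of the group on chromosome 7, Gabrg3 and Gabra5 had differences of -2.55 and -4.33, both past it. On chromosome X Gabra3 and Gabrq had 0.32 and -0.23, neither of them past it. The genes of a group are neighbours, so their values are not independent, and whether position played a part was not tested. Gabra4 and Gabrb1 are divergent and share 0.756% of the exon bases of Gabra4.

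The rho subunits form the bicuculline-insensitive GABA receptors best known from bipolar cells. Gabrr2 measured 20.6, 7.64 and 8.82 RPKM in Opn4 sham and 54.6, 20.1 and 12.6 in Opn4 crush. Its level in HB9 cells was 12.3, 12.3 and 11.4 RPKM after sham and 8.44, 0 and 0.108 after crush. The sham groups overlapped and the crush groups did not, with a log2 difference after crush of 3.53 ± 0.78 (limma adjusted p = 0.0106). The call was lost under 4 of 23 alternatives, including the rod covariate and leaving out HB9 crush 3 (adjusted p up to 0.157).

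The bipolar markers moved in the same comparison as Gabrr2: after crush 13 of 13 tested markers had positive log2 differences, Opn4 minus HB9, with a median log2 difference of 1.30, and 2 passed (Gng13 and Scgn). Scgn was at 0 in all 3 HB9 crush libraries, and the part of bipolar transcripts in the Gabrr2 value was not tested. Gabrr1, next to Gabrr2 on chromosome 4, ranged from 0 to 43.2 RPKM and passed in no comparison.

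Of the glycine receptor genes, Glrb measured 185, 184 and 151 RPKM in Opn4 sham and 168, 176 and 191 in Opn4 crush. In HB9 cells it measured 247, 257 and 282 RPKM after sham and 280, 298 and 246 after crush. Every HB9 library was above every Opn4 library. The difference was small, -0.60 ± 0.14 on the log2 scale after sham (limma adjusted p = 0.0156) and -0.62 ± 0.14 after crush (adjusted p = 0.0134). It was lost without Opn4 sham 3, HB9 sham 2 or HB9 sham 3 in the first case and without HB9 crush 1 or HB9 crush 2 in the other, and with the rod covariate in both (adjusted p up to 0.121 and 0.0881).

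Glra1 (alpha1), the subunit of fast glycine receptors, measured 0.235, 0.165 and 1.66 RPKM in Opn4 sham and 0.191, 0.0914 and 1.96 in Opn4 crush. HB9 cells gave 1.13, 2.94 and 0 RPKM after sham and 8.96, 3.35 and 15.5 after crush. HB9 crush was above all other libraries. The class difference after crush was -2.51 ± 0.66 (limma adjusted p = 0.0248) and was lost under 11 of 22 alternatives, including leaving out Opn4 crush 1, Opn4 crush 2, HB9 crush 1 or HB9 crush 3 (adjusted p up to 0.179). The value of crush against sham in HB9 cells was 2.14 ± 0.66, which did not pass (adjusted p = 0.0784). The gene Gm12236, which shares 5.84% of the exon bases of Glra1 on the opposite strand, measured 2.58, 2.27 and 10.1 RPKM in HB9 crush. Glra2, Glra3 and Glra4 passed in no comparison of the main fit.

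The crush comparison asks how each class responded to nerve injury. In HB9 cells, 3 of the 45 receptor genes fell (Gabbr2, Gabra5 and Grin1) and none passed as higher, where 6.42% of all genes passed, 3.84% higher and 2.57% lower. At an unadjusted p under 0.05, limma gave 3 higher and 10 lower, without a share over all genes at that cut. Voom on recovered reads called 4 lower and none higher at the adjusted threshold. The median log2 difference was -0.44 over the receptor genes, with 32 of 45 below 0. It was 0.11 over all genes, with 7710 of 18269 below 0. In families of more than 2 tested genes, the NMDA genes were below 0 in 6 of 6, the GABA-A genes in 11 of 14 and the AMPA genes in 3 of 4, with medians of -0.56, -0.60 and -0.76. The metabotropic genes were below 0 in 5 of 8 and the glycine receptor genes in 3 of 5 (medians -0.16 and -0.17), and the kainate genes in 2 of 5, with a median of 0.09. Under 23 alternatives, for which shares over all genes are not given, the count of calls ranged from 2 to 10. It was 6 without HB9 crush 1, which added Gabrq and Gria1 as higher and Gabrr2 as lower, and 2 without HB9 sham 2.

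Marker lists moved in the same comparison. The 12 ganglion cell markers summed to 9576 to 10627 RPKM in HB9 sham and 6123 to 7046 in HB9 crush, with 9 of 12 negative, a median log2 difference of -0.72 and 3 past the threshold as lower (Rbpms, Sncg and Nefm). The 9 Müller glia markers summed to 416 to 419 RPKM after sham and 790 to 2164 after crush. Of the 5 that were tested, 4 were positive and 1 negative, with a median of 1.25. Clu passed as higher and Dkk3 as lower. Clu alone measured 1616, 1987 and 705 RPKM in HB9 crush, while Aqp4 and Sox9 were at 0 in all HB9 libraries. The amacrine markers had a median of 0.81, with 6 of 8 positive, and Slc6a9 passed as higher. Rod markers were positive in 12 of 15, with a median of 0.60, and none passed. The part of these lists in the receptor values was not tested.

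In Opn4 cells, Grik1 alone passed as higher and no receptor gene passed as lower, where 1.11% of all genes passed, 0.690% higher and 0.421% lower. At an unadjusted p under 0.05, limma gave 7 higher and 2 lower, and voom called none in either direction with 7 and 5 unadjusted. No share over all genes is given for these unadjusted counts. The median was 0.04 over the receptor genes and -0.02 over all genes, and that of the receptor genes was -0.21 without the library Opn4 sham 1. Beside this, the summed ganglion cell markers ranged over 6181 to 6658 RPKM after sham and 4910 to 5643 after crush (Rbpms passed as lower), and the Müller glia markers over 522 to 601 and 796 to 1000 (none passed). Gabrq (theta), chosen for mention after its values were seen, measured 0.0245, 0.0619 and 0 RPKM in Opn4 sham and 4.37, 7.30 and 8.79 in Opn4 crush, with no overlap and an adjusted p of 0.101. In HB9 cells Gabrq was 0.741, 0 and 0.00940 RPKM after sham and 0, 6.77 and 14.3 after crush.

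The count in Opn4 cells was 2 without Opn4 sham 3, which added Gabrb1 as higher, and 2 without HB9 crush 1, which added Gabrq as higher. The difference of the 2 crush effects passed for Grik1 and Grin1, where 0.816% of all genes passed. Both were higher in Opn4 cells relative to HB9 cells. The 2 crush comparisons contrast different libraries, while the difference uses all 12. All 12 entered 1 fit, so the 2 crush tests share the estimate of spread of each gene and are not independent.

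**Figure D4:**
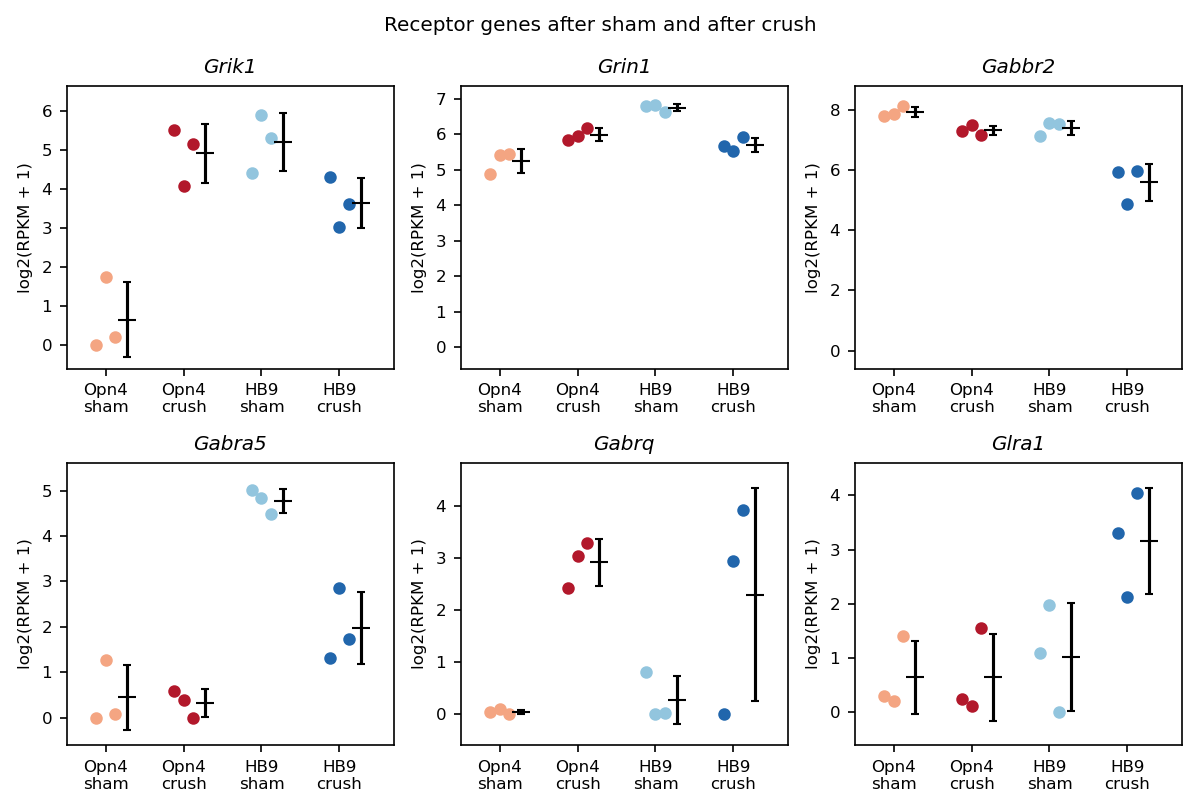
Level of Grik1, Grin1, Gabbr2, Gabra5, Gabrq and Glra1 in each library, as log2(RPKM + 1), by group; the bars at the side of the points are mean and SD (n = 3). Grik1 is near 0 only in Opn4 sham, Gabra5 is high only in HB9 sham, and Gabbr2 is lowest in the 3 HB9 crush libraries.

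Receptors work with auxiliary subunits and scaffolds, and 64 such genes were read beside them, of which 62 were matched and 57 tested. In HB9 cells 9 fell after crush and none passed as higher, where 2.57% of all genes passed as lower and 3.84% as higher. Their median log2 difference was -0.46, against 0.11 over all genes. The largest were Cacng5 (-2.78 ± 0.24, limma adjusted p = 3.00e-05) and Cacng4 (-2.15 ± 0.46), which are AMPA receptor regulatory proteins, Nptx1 (-2.48 ± 0.37), a pentraxin that clusters AMPA receptors, and Slc12a5 (-2.40 ± 0.19, adjusted p = 1.29e-05), the KCC2 transporter that keeps chloride low in neurons. Nlgn3 (-1.51 ± 0.32) and Olfm1 (-1.31 ± 0.12) were next. Slc12a5 had a mean of 179 ± 20.5 RPKM in HB9 sham and 33.1 ± 3.57 in HB9 crush (SD, n = 3), and of 94.7 ± 14.5 and 94.2 ± 13.5 in Opn4 sham and crush.

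In Opn4 cells 1 of the 57 auxiliary genes passed, near the 1.11% of all genes. It was Nptx2, another pentraxin, which rose by 3.02 ± 0.43 (limma adjusted p = 0.00474) from 9.49 ± 4.66 to 82.3 ± 30.9 RPKM. The difference of the crush effects passed as higher in Opn4 cells for 4 of 57, where 0.290% of all genes did, and as lower for none: Nptx2 (3.89), Slc12a5 (2.39), Cacng5 (1.81) and Olfm1 (1.01). Between classes, 3 passed as higher and 7 as lower in Opn4 cells after sham, and 13 and 2 after crush. Of all genes, 5.82% passed as higher and 5.93% as lower after sham, and 5.12% and 7.60% after crush, so the 3 higher after sham are near the background. Shisa6, which regulates AMPA receptor desensitisation, was higher in Opn4 cells both times (2.60 ± 0.50 and 3.26 ± 0.50), and Cacng3 lower both times (-1.75 ± 0.25 and -1.78 ± 0.25). The other largest values after sham were Homer2 (-3.14), Nptx2 (-2.49), Lrrtm2 (2.37) and Dlg1 (2.23), and after crush Lrrtm2 (3.60), Dlg1 (2.24), Hap1 (1.92) and Nptxr (1.72).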

How the data were processed

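RNA-seq values of 12 libraries were used. The deposited table holds RPKM made by the authors, 1 value per gene and library, with mm10 as the named genome build, per the submitters' processing notes, which also list Bowtie, TopHat2 (2.0.11) and edgeR (3.14.0) without their roles. The read counter, annotation and strand setting are not given in the sources used here. RNA had been pre-amplified without stated molecular identifiers, so intervals and floors cover counting error only.

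Genes with at least 1 RPKM in at least 3 of 12 libraries, 18269 in all, entered as log2(RPKM + 1) into 1 limma 3.58.1 model (R 4.3.3, lmFit, contrasts.fit, eBayes with trend) of 4 group means. Tests of the 5 comparisons were two-sided, with Benjamini-Hochberg adjustment over all genes and an adjusted p under 0.05 as threshold. Fold changes on this scale understate those of low genes. Errors of log2 differences are limma standard errors and errors of RPKM are SD, n = 3. Nothing says that the animals of different libraries were separate, so the p-values measure the spread between these libraries, which may be partly technical.

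The RPKM of 28168 of 28168 genes above 0 gave whole reads within 0.01 read, but their sums were 226.7% to 244.2% of the scaling totals, so reads were used only for the voom alternative, read ratios and floors. Scaling totals ranged from 15104446 to 28195798 reads. Scripts were checked on simulated data.

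Full values are given for receptor genes past the threshold in any comparison and for the highest member of each family. All counts and medians include every member, but results for some individual receptor genes are not reported here or drawn. Auxiliary genes are named past the threshold, at most 6 per comparison by size. Members and lists were chosen with earlier results of these data known. Exon overlaps come from GENCODE M21. Of the 64 auxiliary genes, Insyn1 and Kctd12 were not analysed here.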

Additional observations from a re-analysis of the deposited data

Results flagged for a closer look

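The crush effects of 2 receptor genes differed between the classes by a direct test of the difference (limma interaction contrast). For Grik1 the effect in Opn4 cells exceeded that in HB9 cells by 5.80 on the log2 scale (adjusted p = 0.00742), with the 3 Opn4 crush libraries above the 3 Opn4 sham libraries and the 3 HB9 crush libraries below the 3 HB9 sham libraries. For Grin1 the difference was 1.78 (adjusted p = 0.0166), with the same arrangement of libraries, and its cause was not tested.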

How the results depend on the processing

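Of 36 calls of single receptor genes, 15 passed under every alternative tried for them and 0 reversed, while 34 further pairs of gene and comparison passed under at least 1 alternative. Where a gene passed after the most deviating library of its group was left out, that pass is no independent support for a difference. This holds for Gria3, Grin2a, Grin3a and Grm2 above. Calls in Opn4 cells after crush numbered 1, with 0 by voom on recovered reads, 0 in a fit of the compared libraries alone, 2 without both libraries that stood apart (an alternative chosen after seeing the data) and 1 to 2 when each library was left out in turn. In HB9 cells 3 became 6 with a pseudocount of 5, 10 with library weights, 7 with the compared libraries alone and 2 to 6 with each library left out. The difference of the crush effects gave 2, with 1 by voom and 1 to 3 with each library left out; without HB9 sham 2 it was 1. Class differences gave 17 after sham and 13 after crush, with 11 and 7 under the rod marker covariate, and 14 to 18 and 8 to 16 with each library left out; without HB9 crush 1 or HB9 crush 3 the count after crush was 8. The cause of these shifts was not tested. Shares of all genes under each alternative are not given here, so the shifts cannot be set against those of all genes. Dropping the filter on low values, a pseudocount of 0.1 and centring of libraries kept the total counts within 1.5 times. By direction they did not all hold: the class calls after crush were 6 higher and 7 lower in the main fit. They were 6 higher and 3 lower without the filter, and the same with a pseudocount of 0.1. Correlations of deviations between samples of the same replicate number were -0.02 to 0.08. They gave no sign that the numbers pair the samples, but such a check cannot exclude shared animals or batches. With the replicate block the counts were 1, 4, 2, 17 and 14 in the order above. The fit of the compared libraries alone was not run for the difference, which uses all 12. Few recovered reads limit ratios such as that of Gabra4, with 2 in Opn4 sham.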
